A study of Homo sapiens with 18 samples.

Results

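The genes described here are the neighbours of SAMD9 on the long arm of human chromosome 7. They are every gene of the count table whose annotated start lies between 90 and 96 Mb on chromosome 7 (GRCh38), of all biotypes, except SAMD9 and SAMD9L, and no expression value was used to choose them. There were 77 such genes among 41285, of which 38 are protein-coding and 22 are long non-coding RNAs. SAMD9 and its paralogue SAMD9L serve only as the point from which distances were measured.

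RNA was sequenced from 3 isogenic lines of K562, an erythroid line from a patient with chronic myeloid leukaemia, in 18 libraries, 2 for each of 9 groups. The VPR-D9 line carries a doxycycline-inducible dCas9-VPR, an activator aimed at SAMD9, and had groups coded D2000 and D6 with doxycycline and 1 untreated group. The KRAB-D9 line carries a doxycycline-inducible dCas9-KRAB, a repressor aimed at SAMD9, and was given doxycycline with interferon alpha (IFN), IFN alone, doxycycline alone, or neither. The parental line was given IFN or left untreated. The IFN dose was 1000 U/mL over 24 hours and the doxycycline dose in the protocol 2 µg/mL, and KRAB-D9 cells that received both had doxycycline for 24 hours before IFN and during it. The sources used here do not state what D2000 and D6 mean, which sequences the guides target, or whether each engineered line is 1 clone. Parental cells with doxycycline were not analysed here, so an effect of doxycycline itself and an effect of an induced fusion cannot be told apart. Likewise, with 1 line for each construct, what differs between untreated lines cannot be assigned to the construct or to the line.

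A dCas9 fusion binds DNA without cutting it. VPR joins strong activation domains that recruit the transcription machinery near a promoter. KRAB recruits co-repressors that lead to methylated histone H3 lysine 9, a mark that can spread along chromatin, so genes next to a target are a usual place to look for effects beyond it. Interferon alpha induces genes that carry the interferon-stimulated response element (ISRE) in their promoters. SAMD9 and SAMD9L are interferon-induced genes with antiviral and growth-restraining roles, and loss of this stretch of chromosome 7 is recurrent in myeloid neoplasms.

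No gene other than SAMD9L starts within 100 kb of the start of SAMD9. The nearest were HEPACAM2, an immunoglobulin-superfamily membrane protein that starts 108.4 kb away, and VPS50, a subunit of the endosomal EARP complex, 114.3 kb away. Both lie towards higher coordinates, beyond SAMD9L (start at 30.36 kb). In the annotation of the count table HEPACAM2 spans chr7:93188534-93226469 on the minus strand and VPS50 spans chr7:93232340-93361123 on the plus strand. Their bodies do not overlap each other or another listed gene. CDK6, the cyclin D-dependent kinase of the G1 phase (chr7:92604921-92836573), starts 281.4 kb towards lower coordinates, given as -281.4 kb. GNGT1, a G protein gamma subunit (chr7:93591573-93911265), starts at 473.6 kb in that annotation, with a span that overlaps 5 other listed genes, TFPI2 among them. In RefSeq it starts at position 93906567, between the starts of TFPI2 (772.7 kb) and GNG11 (803.7 kb). By the annotation of the count table, 10 genes start between 100 and 500 kb from SAMD9, 27 between 500 kb and 1 Mb, and 40 farther away.

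Promoter sequence from RefSeq (GRCh38.p14) was found for 38 of the 77 genes, in 46 windows of 250 bases before a start. The ISRE core, searched as GAAA, any pair of bases and GAAA on either strand, is in 3.02% of 35116 such windows of the whole table. Among the neighbours it was in 1 of 46, that of GNG11, and it is in the window of SAMD9. Neither HEPACAM2 nor VPS50 has these letters in its windows. In RefSeq an upstream start of HEPACAM2 and the start of VPS50 face away from each other with 167 bases between them, and HEPACAM2 has another start at position 93219571. The HEPACAM2 start of the count table, 93226469, has no window of its own. The 3 stretches below are shown because they are the target promoter with its ISRE match, the only neighbouring promoter with such a match, and the shared region of the nearest pair. Each reads 5′ to 3′ on the strand given, and capitals mark the ISRE core.

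SAMD9 (chr7:93118059-93118179, minus strand, 200 to 80 bases before the start): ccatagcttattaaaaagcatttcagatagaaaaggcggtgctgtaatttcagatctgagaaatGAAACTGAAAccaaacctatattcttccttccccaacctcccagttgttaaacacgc
GNG11 (chr7:93921615-93921734, plus strand, the 120 bases before the start): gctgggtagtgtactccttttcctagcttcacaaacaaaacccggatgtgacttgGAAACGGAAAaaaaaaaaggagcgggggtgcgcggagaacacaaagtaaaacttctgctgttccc
Between HEPACAM2 and VPS50 (chr7:93232199-93232365, plus strand): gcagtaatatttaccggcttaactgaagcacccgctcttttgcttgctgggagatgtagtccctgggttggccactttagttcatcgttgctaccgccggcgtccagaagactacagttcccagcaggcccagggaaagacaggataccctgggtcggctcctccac

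The second motif searched, the gamma-activated site TTCNNNGAA, is in 6.57% of all windows and in 2 neighbours, CLDN12 and BET1. A match of letters is a description of the sequence and not evidence of binding.

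Libraries held 32.7 to 63.0 M counts. Levels are counts per 1000000 after TMM scaling (CPM). All 10 K562 identity genes checked were present in every library, with a summed level of 649 to 3860 CPM. Among markers of other cells, CD14, CSF1R and KRT5 stayed under 1 CPM in every library, CD3E reached 0.974 CPM, and EPCAM (30.4 to 98.8 CPM) and LYZ (12.0 to 51.0 CPM) were detected throughout. The libraries of KRAB-D9 with IFN stood apart from each other more than those of any other group, with a variance 10.3 times counting noise against 4.27 to 6.12 elsewhere. Their replicate 1 was also the shallowest library. Of the 77 genes, 44 passed the filter on low counts (31 of them protein-coding). The other 33 had 2 to 59 counts summed over all 18 libraries, with a median of 8, and nothing is said of their response. Of the 44, 20 had a mean under 1 CPM over all libraries. A gene was called where edgeR's quasi-likelihood test gave an adjusted p under 0.05, by the Benjamini-Hochberg method across the 22143 genes it tested. Errors of log2 fold changes (±) are standard errors, and each group has n = 2 libraries.

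SAMD9 itself was at 974 and 948 CPM in D2000 cells, 936 and 960 CPM in D6 cells, and 59.9 and 61.4 CPM in untreated VPR-D9 cells. In KRAB-D9 cells it was at 0 and 0.117 CPM with doxycycline, against 0.750 and 0.364 CPM without. With IFN it was at 0.849 and 0.745 CPM in doxycycline-treated KRAB-D9 cells, against 55.0 and 53.5 CPM in those given IFN alone. The log2 fold changes were 3.99 ± 0.06, 3.97 ± 0.06, -3.23 ± 0.50 and -6.08 ± 0.11. None of the neighbours that averaged 1 CPM or more over the groups compared changed by as much in any of these 4 comparisons.

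Activator, D2000. VPS50 was at 54.7 and 50.2 CPM in D2000 cells, against 42.3 and 43.5 CPM in untreated VPR-D9 cells. The groups did not overlap, and VPS50 rose by 0.29 ± 0.07 on the log2 scale (edgeR adjusted p = 0.000602), with a 95% interval of 1.11 to 1.35-fold, where SAMD9 rose 15.8-fold. HEPACAM2 was at 5.23 and 6.42 CPM in D2000 cells, against 6.38 and 7.18 CPM in untreated cells, and it was not called (-0.22 ± 0.13, 95% interval -0.49 to 0.04). On the other side, CDK6 was at 83.5 and 85.7 CPM in D2000 cells, against 159 and 163 CPM in untreated cells. CDK6 fell by 0.93 ± 0.04 (edgeR adjusted p = 2.49e-20), a 1.90-fold lower level, and this was the smallest p-value among the 44 genes. GNGT1, at 3.07 and 3.09 CPM in D2000 cells against 2.54 and 2.15 CPM in untreated cells, was not called (0.39 ± 0.20, edgeR adjusted p = 0.114). SAMD9L rose by 0.51 ± 0.15.

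In D2000 cells 14 of the 44 genes tested were called, or 31.8%, against 46.1% of all genes. There were 6 higher and 8 lower, against 21.9% and 24.2% of all genes. Farther from SAMD9, CFAP69, a cilia and flagella protein at -2873 kb, was at 5.81 and 6.21 CPM in D2000 cells, against 2.46 and 2.43 CPM in untreated cells (1.30 ± 0.28, edgeR adjusted p = 0.000158). AKAP9, a centrosome and Golgi anchor of protein kinase A, rose to 257 and 262 CPM in D2000 cells, against 193 and 205 CPM in untreated cells (0.38 ± 0.05). CASD1, a sialic acid O-acetyltransferase, PON2, a paraoxonase, and ANKIB1, a ubiquitin ligase, also rose, by 0.51, 0.32 and 0.17. The genes called lower were CDK6, GTPBP10 (a GTPase of mitochondrial ribosome assembly, -0.41 ± 0.06), FAM133B (-0.35 ± 0.07), the Wnt receptor FZD1 (-0.40 ± 0.11), CYP51A1 of cholesterol synthesis (-0.39 ± 0.11), the mitochondrial factor MTERF1 (-0.23 ± 0.08), STEAP1 and COL1A2. COL1A2, a type I collagen chain, had 0 and 1 counts in D2000 cells, against 4 and 13 in untreated VPR-D9 cells. Its partner chain COL1A1 was at 30.9 and 30.0 CPM in D2000 cells, against 3.38 and 2.67 CPM in untreated cells, and COL3A1 at 2.18 and 2.18 CPM, against 1.29 and 1.11 CPM. The summed fibroblast and epithelial markers were at 62.9 to 63.5 CPM in D2000 cells, against 69.0 to 73.2 CPM in untreated cells. This sum includes the epithelial marker EPCAM (30.4 to 98.8 CPM over all libraries), so here and below it does not follow the fibroblast genes. In D2000 cells the sum was lower although COL1A1 and COL3A1 were higher. The part of these markers in the COL1A2 result was not tested. STEAP1 was at 0.125 and 0.0908 CPM in D2000 cells, against 0.117 and 0.410 CPM in untreated cells, so its groups overlapped.

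The direction of the smaller changes depended on the scaling. With library totals in place of TMM the median of all genes moved by 0.23 on the log2 scale, and the split was 12 higher and 3 lower instead of 6 and 8. The shares of all genes called in fits with library totals or with 1 library left out are not reported here. Counts from such fits, here and below, therefore describe the neighbours alone. CDK6 and GTPBP10 remained lower under that scaling (-0.70 and -0.18), while CYP51A1, FAM133B, FZD1, MTERF1 and STEAP1 were no longer called and VPS50 rose by 0.52. HEPACAM2 came to 0.01 on that scale. GNGT1 rose by enough to be called (edgeR adjusted p = 0.0109). Leaving out replicate 2 of the untreated group ended the call of COL1A2, and STEAP1 was not called without that library or either D2000 library. ANKIB1 was not called without either untreated library or without replicate 2 of D2000. CYP51A1 and MTERF1 lost their calls without replicate 2 of D2000, CYP51A1 also without replicate 1 of the untreated group and MTERF1 without replicate 2 of the untreated group. CTB-85C5.2, a non-coding gene within the span of CDK6 whose nearer end lies at -450.9 kb, had at most 0.558 CPM in any library and was called in none of the 12 comparisons.

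Activator, D6. Here 2 of 44 genes were called, or 4.55%, against 6.60% of all genes, and both were lower, against 3.41% of all genes. CDK6 was at 141 and 136 CPM in D6 cells, against 159 and 163 CPM in untreated VPR-D9 cells (-0.22 ± 0.04, edgeR adjusted p = 0.000929). HEPACAM2 was at 4.36 and 5.30 CPM in D6 cells, against 6.38 and 7.18 CPM in untreated cells (-0.49 ± 0.14, edgeR adjusted p = 0.0202). The HEPACAM2 call was lost without replicate 1 of D6 (edgeR adjusted p = 0.347) or without replicate 2 of the untreated group (edgeR adjusted p = 0.227). VPS50 was at 46.9 and 44.2 CPM in D6 cells, against 42.3 and 43.5 CPM in untreated cells, and was not called (0.09 ± 0.07, 95% interval 0.962 to 1.18-fold).

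The activator groups shared their untreated libraries, so they were also compared directly. SAMD9 did not differ detectably between them (D6 minus D2000, -0.02 ± 0.05), while 11 of 44 neighbours were called, or 25.0%, against 40.4% of all genes, 6 of them higher and 5 lower in D6, against 21.7% and 18.8% of all genes. With library totals the split was 3 higher and 11 lower, and the median of all genes moved by -0.195. CDK6 was higher in D6 than in D2000 by 0.71 ± 0.04 (edgeR adjusted p = 1.64e-16). VPS50 was lower in D6 by 0.20 ± 0.07 (edgeR adjusted p = 0.0187), a call lost without replicate 1 of D2000 or replicate 2 of D6. AKAP9, CASD1, CFAP69 and PON2 were lower in D6 as well, with differences of -0.31 to -0.94, and the calls of CASD1 and CFAP69 were each lost without at least 1 library. GTPBP10, FAM133B and MTERF1 were higher in D6 by 0.31 to 0.45, as was STEAP1 (0.463 and 0.480 CPM in D6 cells, against 0.125 and 0.0908 CPM in D2000 cells) and CDK6-AS1, a non-coding neighbour of CDK6 with few counts. Leaving out replicate 1 of D2000 or of D6 ended the CDK6-AS1 call.

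**Figure D1:**
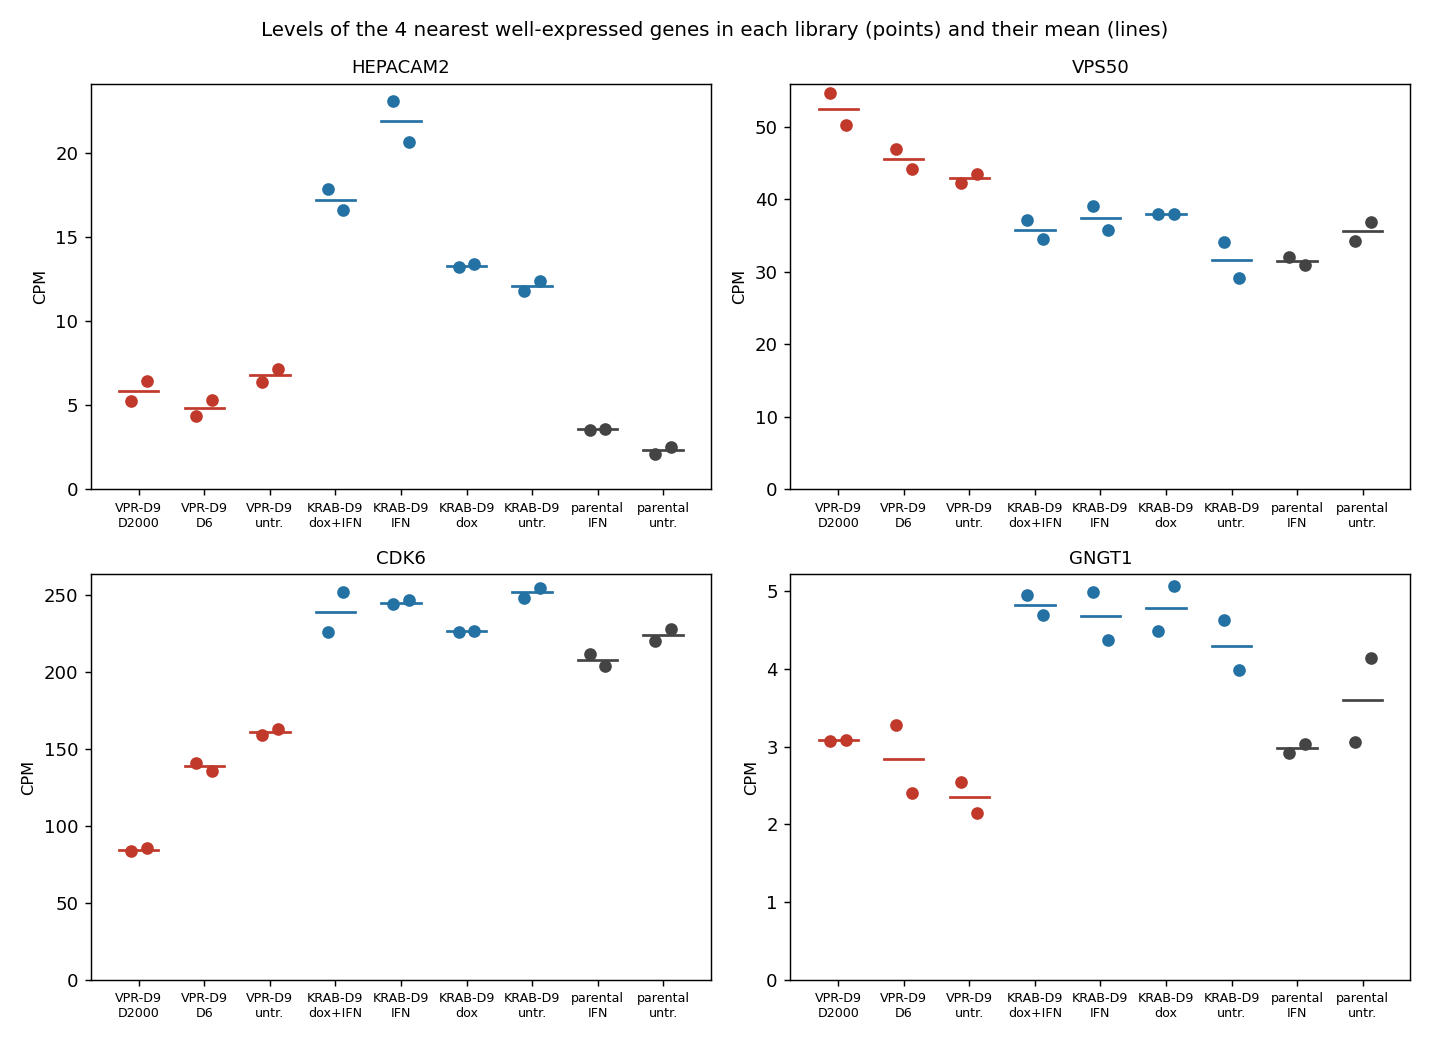
Levels of HEPACAM2, VPS50, CDK6 and GNGT1 in the 9 groups (x axis) in CPM from 0 (y axis). By the annotation of the count table they are the 4 neighbours nearest to SAMD9 that average at least 1 CPM. Points are the 2 libraries of a group and lines their mean. CDK6 is lowest in D2000 cells, at 83.5 and 85.7 CPM, and HEPACAM2 is highest in KRAB-D9 cells with IFN, at 23.1 and 20.7 CPM.

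Repressor without IFN. None of the 3 genes nearest to SAMD9 on its higher-coordinate side was called lower, but SAMD9L was under 1 CPM here, where a fall is hard to detect. VPS50 was at 38.0 and 38.0 CPM in doxycycline-treated KRAB-D9 cells, against 34.1 and 29.1 CPM in untreated KRAB-D9 cells, and rose by 0.26 ± 0.07 (edgeR adjusted p = 0.00594). This call was lost without replicate 2 of the untreated group (edgeR adjusted p = 0.253). HEPACAM2 was at 13.2 and 13.4 CPM with doxycycline, against 11.8 and 12.4 CPM without, and was not called (0.14 ± 0.12, 95% interval -0.11 to 0.39). SAMD9L, at 0.837 and 0.429 CPM with doxycycline against 0.487 and 0.273 CPM without, was not called either. CDK6 was at 226 and 227 CPM with doxycycline, against 248 and 255 CPM without, and fell by 0.15 ± 0.04 (edgeR adjusted p = 0.00765). With library totals CDK6 was not called (edgeR adjusted p = 0.0577), nor was it without replicate 1 of the doxycycline group or replicate 2 of the untreated group. GNGT1 was at 4.49 and 5.07 CPM with doxycycline, against 4.63 and 3.98 CPM without (0.15 ± 0.20).

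With doxycycline alone, 9 of 44 genes were called, or 20.5%, against 24.7% of all genes, with 5 higher and 4 lower (12.0% and 12.7% of all genes), or 6 and 2 with library totals. The largest fall among the called neighbours was that of COL1A2, the alpha-2 chain of type I collagen, 1277 kb from SAMD9. It was at 12.9 and 11.5 CPM with doxycycline, against 32.5 and 26.8 CPM without (-1.28 ± 0.13, edgeR adjusted p = 4.06e-10), a 2.43-fold lower level. COL1A1, its partner chain on another chromosome and one of the fibroblast markers, was at 1.36 and 0.878 CPM with doxycycline, against 2.47 and 2.87 CPM without. The summed fibroblast and epithelial markers, mostly EPCAM, were at 71.1 to 72.6 CPM with doxycycline, against 82.5 to 87.3 CPM without. PDGFRB stayed under 0.2 CPM in every library. The part of these markers in the COL1A2 result was not tested. GATAD1, a chromatin-associated zinc finger protein at -670.5 kb, rose to 87.9 and 89.3 CPM with doxycycline, against 66.2 and 70.5 CPM without (0.38 ± 0.06, edgeR adjusted p = 1.25e-06). ANKIB1 and the claudin CLDN12 rose by 0.24 ± 0.06 and 0.30 ± 0.10. GTPBP10 and FAM133B fell by 0.23 and 0.20. Of these, all but GATAD1 and COL1A2 lost their call without at least 1 of the 4 libraries.

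Repressor with IFN. HEPACAM2 was at 17.9 and 16.6 CPM with doxycycline and IFN, against 23.1 and 20.7 CPM with IFN alone, and fell by 0.34 ± 0.12 (edgeR adjusted p = 0.0337). The call was lost with library totals (edgeR adjusted p = 0.0859) and without any 1 of 3 of its 4 libraries: either library with doxycycline and IFN, or replicate 1 with IFN alone. VPS50 was at 37.2 and 34.5 CPM with both agents, against 39.1 and 35.7 CPM with IFN alone, with a difference of -0.06 ± 0.07 and a 95% interval of 0.867 to 1.07-fold. SAMD9 was 67.7-fold lower in the same comparison, and SAMD9L, at 24.9 and 23.4 CPM with both agents against 37.2 and 31.8 CPM with IFN alone, fell by 0.51 ± 0.13. CDK6, at 226 and 252 CPM with both against 244 and 247 CPM with IFN alone, was not called (-0.04 ± 0.04).

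In that comparison 10 of 44 genes were called, or 22.7%, against 22.3% of all genes, with 3 higher and 7 lower (10.4% and 11.9% of all genes), or 5 and 4 with library totals. COL1A2 was at 19.9 and 17.7 CPM with both agents, against 33.4 and 36.8 CPM with IFN alone (-0.91 ± 0.13, edgeR adjusted p = 4.87e-07). CYP51A1, lanosterol demethylase of cholesterol synthesis at -983.2 kb, was at 25.2 and 25.9 CPM with both, against 14.5 and 19.8 CPM with IFN alone (0.56 ± 0.11, edgeR adjusted p = 0.000241). Its antisense neighbour CYP51A1-AS1 had 23 and 6 counts with both, against 1 and 0 counts with IFN alone, and was called higher. The libraries with IFN alone are also compared with untreated KRAB-D9 cells below. The opposite calls of CYP51A1-AS1 and of HEPACAM2 in these 2 comparisons are therefore not independent. GATAD1 rose by 0.24 ± 0.06. PON2, FAM133B, MTERF1, GTPBP10 and STEAP1 fell by 0.21 to 0.79. MTERF1 and STEAP1 were not called with library totals, nor MTERF1 with a fit to the compared groups only (edgeR adjusted p = 0.104). COL1A2, CYP51A1 and GTPBP10 kept their calls whichever library was left out, and the others lost theirs without at least 1. COL1A1 was at 1.73 and 1.21 CPM with both agents, against 2.67 and 3.06 CPM with IFN alone. The summed fibroblast and epithelial markers, mostly EPCAM, were at 73.8 to 80.8 CPM with both, against 95.3 to 101 CPM with IFN alone. The part of these markers in the COL1A2 result was not tested.

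The change with doxycycline was tested for a difference between cells with and without IFN. No neighbour was called by edgeR or by DESeq2, against 0.158% of all genes by edgeR, and 5 of 44 had an unadjusted p under 0.05, against 8.97% of all genes. HEPACAM2 had a difference of -0.48 ± 0.17 (edgeR adjusted p = 0.354) and VPS50 of -0.32 ± 0.10 (edgeR adjusted p = 0.289). Without replicate 2 of KRAB-D9 with IFN, 2 genes were called, VPS50 among them (edgeR adjusted p = 0.0291).

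**Figure D2:**
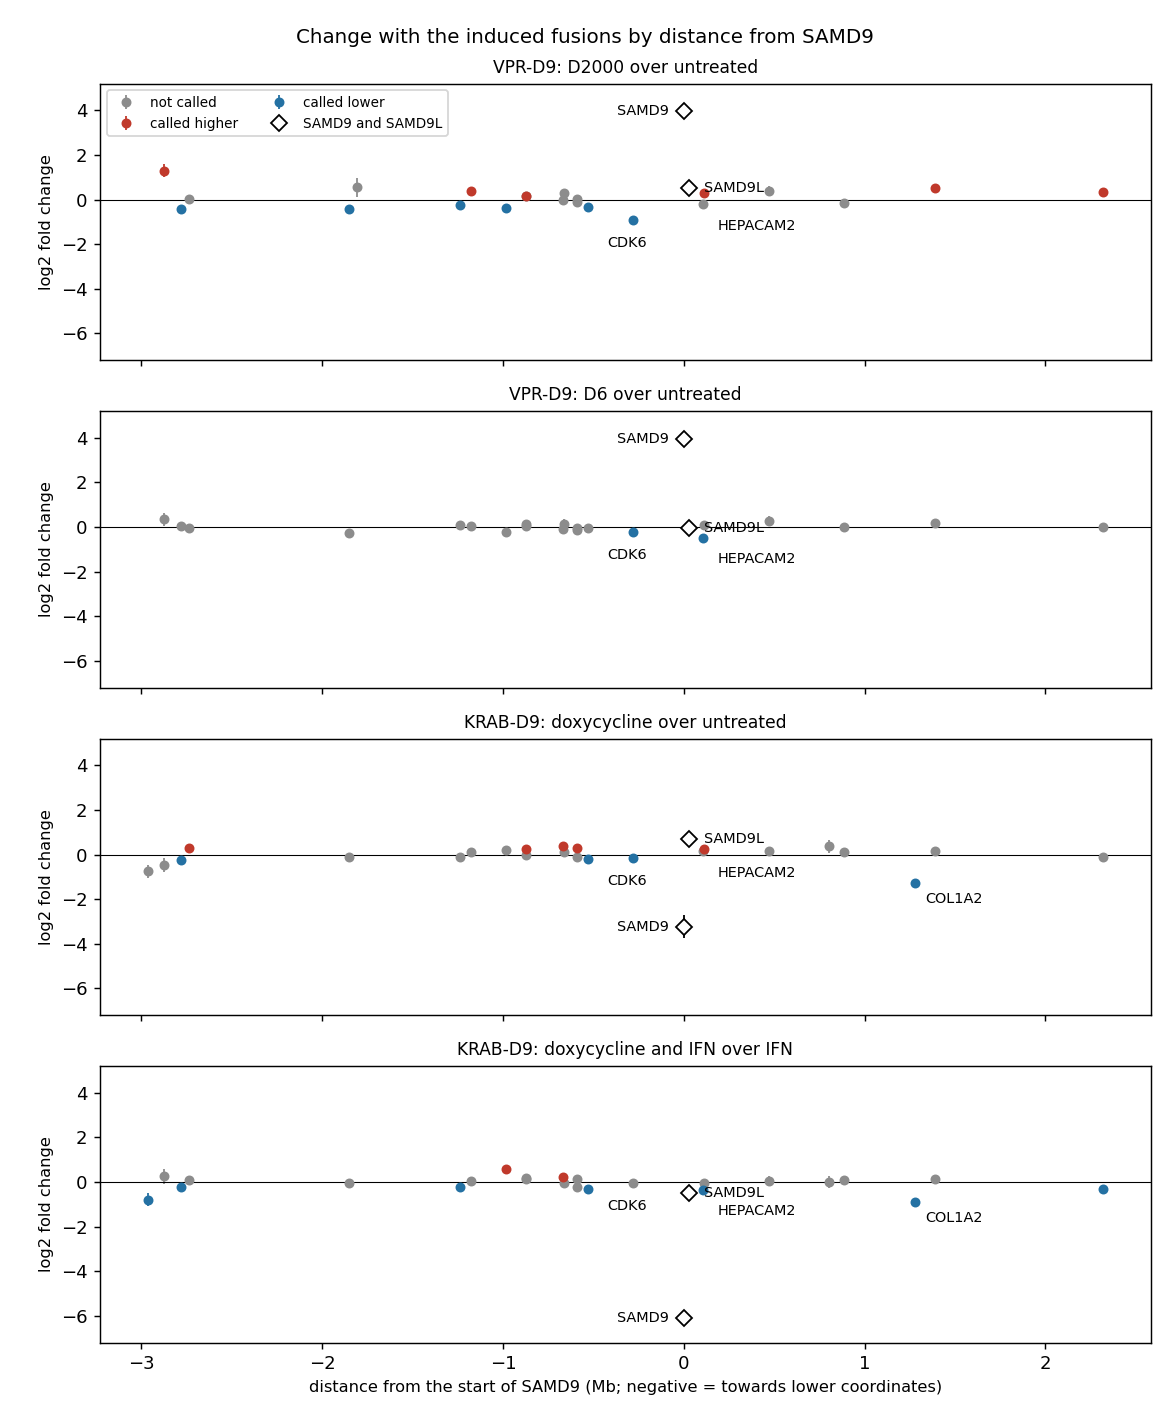
Log2 fold change (y axis) of each neighbour averaging at least 1 CPM over the groups compared, against the distance of its start from that of SAMD9 in Mb (x axis), in the 4 comparisons with an induced fusion. Bars are standard errors, red and blue points were called higher and lower, and diamonds are SAMD9 and SAMD9L. SAMD9 stands at 3.99, 3.97, -3.23 and -6.08, while the neighbours lie between -1.28 and 1.30.

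By distance, the neighbours of at least 1 CPM went both ways in the bins of the D2000 and doxycycline comparisons. For D2000, the 4 genes between 100 and 500 kb had a median log2 fold change of 0.03 and ranged from -0.93 (CDK6) to 0.39. The value of 0.39 was that of GNGT1, whose RefSeq start lies beyond 500 kb. The 9 between 500 kb and 1 Mb had a median of 0.00 and a range of -0.39 to 0.28, and the 9 farther away a median of 0.32 and a range of -0.41 to 1.30. For D6 the medians were -0.06, -0.02 and 0.04. In KRAB-D9 cells with doxycycline they were 0.14, 0.16 and -0.12, with ranges of -0.15 to 0.26, -0.20 to 0.38 and -1.28 to 0.30. With doxycycline and IFN against IFN the medians were -0.05, 0.11 and -0.12. The medians of all genes of at least 1 CPM in these 4 comparisons were -0.05, -0.02, 0.01 and 0.00. Spearman's coefficient between the size of the change and the distance was 0.30 for D2000 over 22 genes, -0.24 for D6 over 21 genes, 0.21 for doxycycline and 0.28 for doxycycline with IFN over 24 genes each. It is a description only, since these genes come from the same libraries and neighbours that overlap can share reads.

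IFN. In each of the 3 IFN comparisons 40 of 40 listed interferon-stimulated genes were called higher. Their medians were 5.93 in parental cells, 6.14 in KRAB-D9 cells and 5.59 in KRAB-D9 cells with doxycycline. Of all genes, 3.03%, 3.98% and 3.12% were called higher. The list was chosen with earlier results of these data known, so its count is a description and not a test. SAMD9 rose by 4.13, 6.55 and 3.70 and SAMD9L by 4.09, 6.46 and 5.25. Among the neighbours the changes were smaller, and HEPACAM2 was the one called both in parental cells and in KRAB-D9 cells without doxycycline. In parental cells HEPACAM2 was at 3.49 and 3.60 CPM with IFN, against 2.11 and 2.53 CPM without (0.62 ± 0.16, edgeR adjusted p = 0.0165). In KRAB-D9 cells it was at 23.1 and 20.7 CPM with IFN, against 11.8 and 12.4 CPM without (0.86 ± 0.12, edgeR adjusted p = 2.77e-06), a 1.81-fold rise. With doxycycline present it was at 17.9 and 16.6 CPM with IFN, against 13.2 and 13.4 CPM without (0.37 ± 0.12), and it was not called by edgeR (adjusted p = 0.0674) but was by DESeq2 (adjusted p = 0.0397). Both libraries with IFN lay above both without it in all 3 comparisons. The call in parental cells was lost without replicate 1 of the untreated group (edgeR adjusted p = 0.289), without either IFN library (edgeR adjusted p = 0.0588 and 0.134) and with a fit to the compared groups only (edgeR adjusted p = 0.0732). The KRAB-D9 call held under every alternative run, with log2 fold changes of 0.78 without replicate 1 and 0.93 without replicate 2 of the IFN group.

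VPS50, which in RefSeq starts next to an upstream start of HEPACAM2, was at 32.0 and 31.0 CPM in parental cells with IFN, against 34.2 and 36.9 CPM without (-0.17 ± 0.07, not called). In KRAB-D9 cells it was at 39.1 and 35.7 CPM with IFN, against 34.1 and 29.1 CPM without (0.24 ± 0.07, edgeR adjusted p = 0.0501). Other settings put that value on the other side of the threshold, among them DESeq2 (adjusted p = 0.0395) and the removal of replicate 2 of the IFN group (edgeR adjusted p = 0.0143). The IFN effect on VPS50 in KRAB-D9 minus that in parental cells was 0.41 ± 0.11 (edgeR adjusted p = 0.0880, DESeq2 adjusted p = 0.0419). CDK6 and GNGT1 were not called in any IFN comparison. GNG11, the neighbour with an ISRE core in its promoter, was at 0.204 and 0.229 CPM in parental cells with IFN, against 0.414 and 0.323 CPM without. In KRAB-D9 cells GNG11 was at 4.48 and 4.36 CPM with IFN, against 5.27 and 4.02 CPM without, and it was called in no IFN comparison.

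In parental cells 1 of 44 neighbours, HEPACAM2, was called with IFN, or 2.27%, against 4.34% of all genes and 3.03% of all genes called higher. In KRAB-D9 cells 4 were called, or 9.09%, against 6.40% of all genes, with 3 higher and 1 lower (3.98% and 2.42% of all genes), and 8 were called without replicate 2 of the IFN group. Besides HEPACAM2 these were ANKIB1, at 48.5 and 43.9 CPM with IFN against 36.3 and 38.0 CPM without (0.31 ± 0.06, edgeR adjusted p = 0.000762), AKAP9, at 193 and 168 CPM with IFN against 157 and 159 CPM without (0.19 ± 0.05, edgeR adjusted p = 0.0102), and CYP51A1-AS1, which had 1 and 0 counts with IFN, against 27 and 7 without. With a fit to the compared groups only, neither ANKIB1 (edgeR adjusted p = 0.073) nor AKAP9 (edgeR adjusted p = 0.218) was called. AKAP9 was also not called without replicate 1 of the IFN group or without either untreated library, and CYP51A1-AS1 not without replicate 2 of the IFN group or replicate 1 of the untreated group. With doxycycline present 1 of 44 was called, or 2.27%, against 4.89% of all genes and 3.12% called higher. It was COL1A2, at 19.9 and 17.7 CPM with doxycycline and IFN, against 12.9 and 11.5 CPM with doxycycline alone (0.62 ± 0.13, edgeR adjusted p = 0.00155), and the call was lost without replicate 2 of the doxycycline group or replicate 1 with both agents. The IFN effect was also compared between KRAB-D9 and parental cells. No neighbour was called by edgeR, against 0.303% of all genes, 1 (VPS50) was by DESeq2, and 5 of 44 had an unadjusted p under 0.05 by edgeR, against 9.72% of all genes. The edgeR count was 4 without replicate 2 of KRAB-D9 with IFN and 1 without replicate 1 of untreated KRAB-D9 cells.

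**Figure D3:**
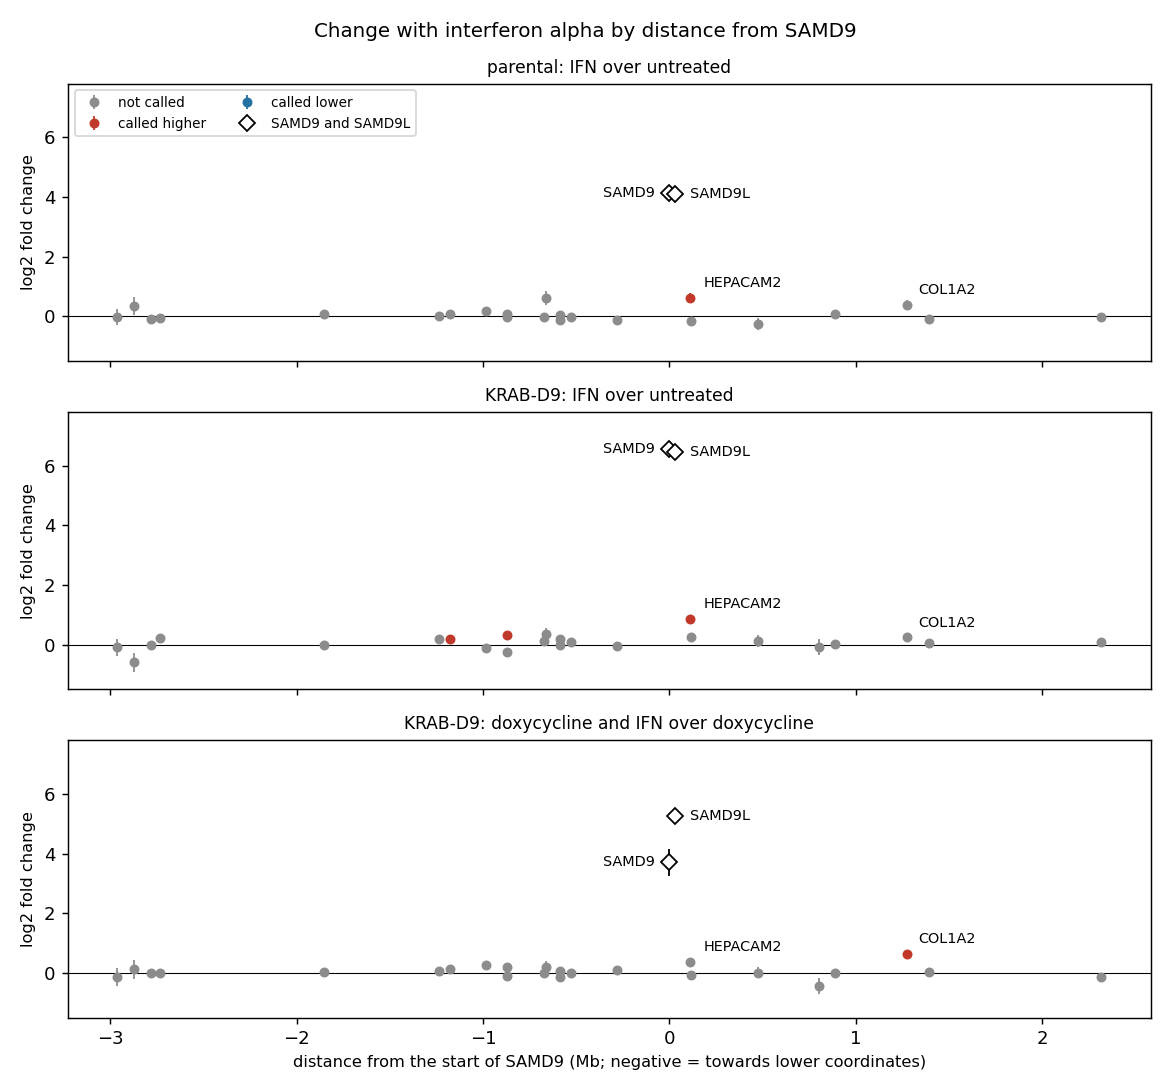
Log2 fold change with IFN (y axis) of each neighbour averaging at least 1 CPM over the groups compared, against the distance of its start from that of SAMD9 in Mb (x axis), in the 3 IFN comparisons. Bars are standard errors, red points were called higher, and diamonds are SAMD9 and SAMD9L. SAMD9 lies between 3.70 and 6.55, and HEPACAM2, the nearest neighbour, at 0.62, 0.86 and 0.37.

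Untreated lines. Among neighbours of at least 1 CPM over the groups compared, the largest difference between an untreated line and parental cells was -5.10 on the log2 scale (COL1A2 in VPR-D9). At that level no change with a treatment lay beyond -1.28 or 1.30. COL1A2 met that level against parental cells through the parental libraries, but not in D2000 against untreated VPR-D9 cells, where both groups were low. Over all tested neighbours, changes with a treatment ranged from -4.59 to 6.56. Differences between an untreated line and parental cells ranged from -6.44 to 4.53, and some of these values rest on few counts. SAMD9 was at 59.9 and 61.4 CPM in untreated VPR-D9 cells and 0.750 and 0.364 CPM in untreated KRAB-D9 cells, against 9.31 and 9.05 CPM in untreated parental cells. HEPACAM2 was at 6.38 and 7.18 CPM in VPR-D9 cells and 11.8 and 12.4 CPM in KRAB-D9 cells, against 2.11 and 2.53 CPM in parental cells. It was therefore higher in both engineered lines, by 1.55 ± 0.15 (edgeR adjusted p = 3.04e-11) and 2.38 ± 0.15 (edgeR adjusted p = 2.21e-16), whereas SAMD9 differed from parental cells by 2.72 ± 0.07 in VPR-D9 and by -3.99 ± 0.16 in KRAB-D9. VPS50 was higher in VPR-D9 by 0.27 ± 0.07 (edgeR adjusted p = 0.00247, 0.0704 without replicate 1 of the parental group) and not called in KRAB-D9 (-0.17 ± 0.07). CDK6 was at 159 and 163 CPM in VPR-D9 cells and 248 and 255 CPM in KRAB-D9 cells, against 220 and 228 CPM in parental cells, with differences of -0.48 ± 0.04 and 0.17 ± 0.04, both called, the KRAB-D9 one not without replicate 1 of the parental group or replicate 2 of the KRAB-D9 group. These comparisons share the parental libraries.

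COL1A2 was at 0.0669 and 0.205 CPM in untreated VPR-D9 cells and 32.5 and 26.8 CPM in untreated KRAB-D9 cells, against 5.28 and 4.34 CPM in parental cells. That is 34.4-fold lower in VPR-D9 and 6.16-fold higher in KRAB-D9 (edgeR adjusted p = 2.6e-18 and 5.75e-18). COL1A1, in contrast, was at 3.38 and 2.67 CPM in VPR-D9 cells and 2.47 and 2.87 CPM in KRAB-D9 cells, against 0.756 and 0.707 CPM in parental cells. The fibroblast and epithelial markers, mostly EPCAM, summed to 69.0 to 73.2 CPM in VPR-D9 cells and 82.5 to 87.3 CPM in KRAB-D9 cells. In parental cells they summed to 95.4 to 96.4 CPM. Their part in the COL1A2 differences was not tested. GNG11, a G protein gamma subunit at 803.7 kb, had 2 and 0 counts in VPR-D9 cells and 281 and 177 in KRAB-D9 cells, against 23 and 16 in parental cells. It was called lower in VPR-D9 and 12.5-fold higher in KRAB-D9 (3.64 ± 0.34, edgeR adjusted p = 4.48e-11). STEAP1, of the STEAP metalloreductase family at -2964 kb, was at 0.117 and 0.410 CPM in VPR-D9 cells, against 3.91 and 4.40 CPM in parental cells, and fell by 3.95 ± 0.35 on the log2 scale (edgeR adjusted p = 5.26e-12). It was at 2.96 and 2.98 CPM in KRAB-D9 cells, which was not called. AKAP9 was higher in VPR-D9 cells, at 193 and 205 CPM, against 148 and 149 CPM in parental cells (0.43 ± 0.05, edgeR adjusted p = 1.22e-09). The non-coding gene AC007566.10 was at 2.81 and 2.73 CPM in VPR-D9 cells, against 1.60 and 1.60 CPM in parental cells (0.79 ± 0.22, edgeR adjusted p = 0.00363). Against parental cells, the genes called lower in untreated KRAB-D9 cells included ANKIB1 (-0.36 ± 0.06), CLDN12 (-0.33 ± 0.10) and GATAD1 (-0.19 ± 0.06), all of which were called higher with doxycycline within KRAB-D9, a comparison that shares the untreated KRAB-D9 libraries. Of these, ANKIB1 alone kept its call against parental cells whichever library was left out.

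The calcitonin receptor CALCR had 0 counts in both untreated KRAB-D9 libraries, against 6 and 8 in the parental libraries, which is at least 4.37-fold lower when 3 counts over the group are taken as the limit. The CALCR call was lost without any 1 of these 4 libraries. In all, 15 of 44 genes differed between untreated VPR-D9 and parental cells (7 higher and 8 lower, against 18.5% and 18.2% of all genes), or 34.1%, against 36.8%, and 14 of 44 between untreated KRAB-D9 and parental cells (6 higher and 8 lower, against 14.2% and 14.3% of all genes), or 31.8%, against 28.5%. The KRAB-D9 count was 8 without replicate 1 of the parental group or without replicate 2 of the KRAB-D9 group, and 9 without replicate 2 of the parental group.

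**Figure D4:**
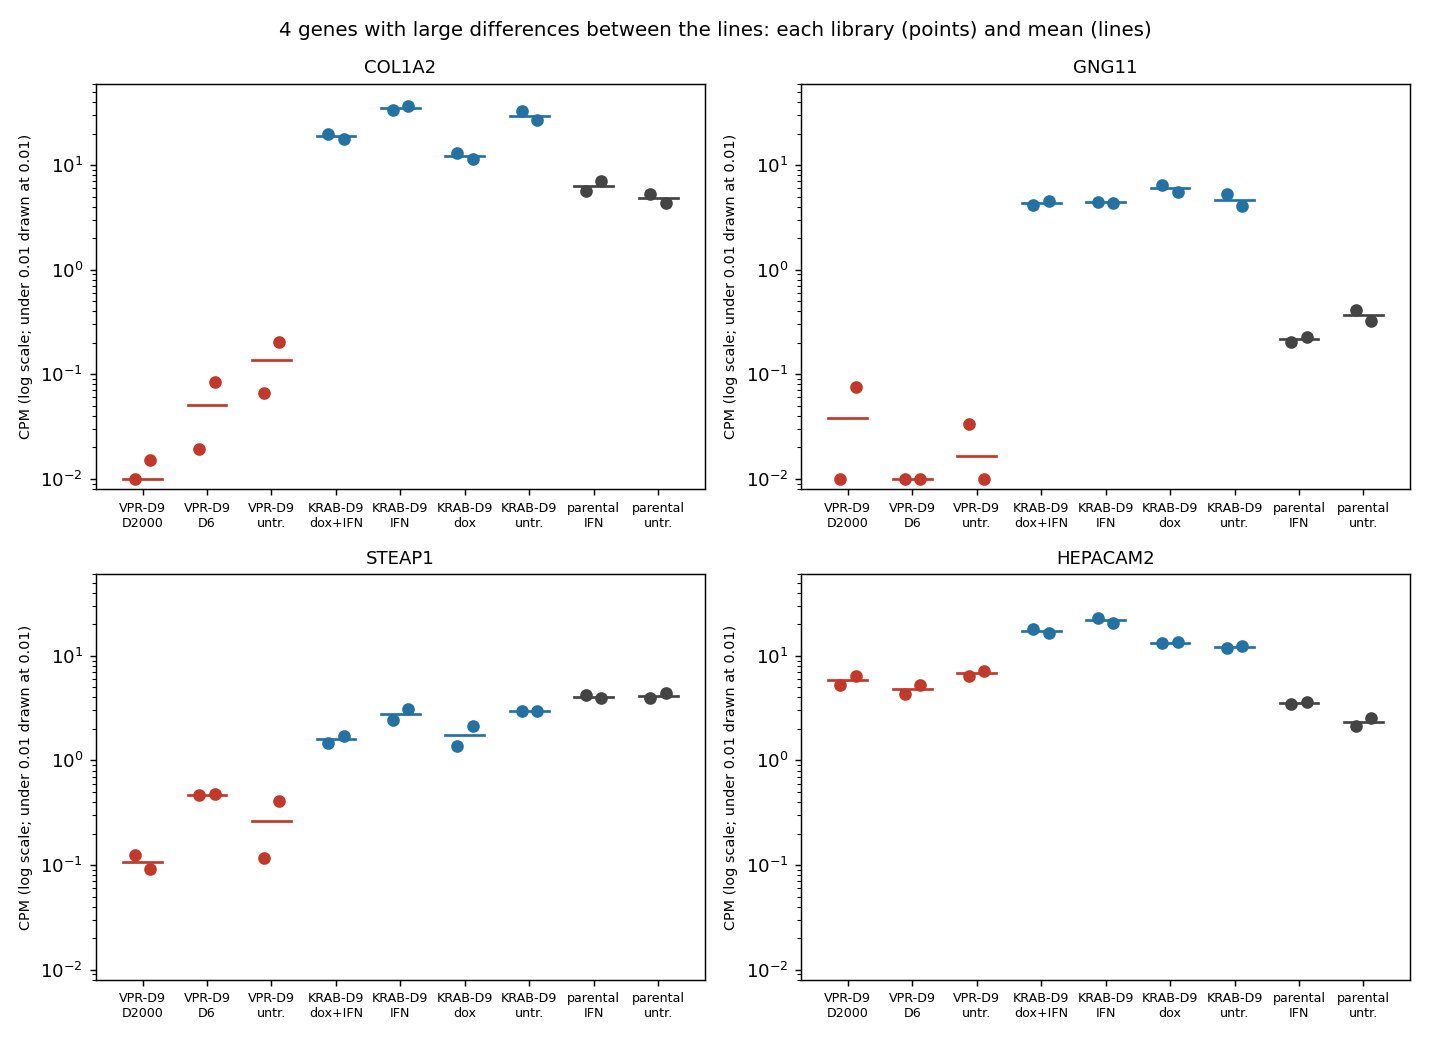
Levels of COL1A2, GNG11, STEAP1 and HEPACAM2 in the 9 groups (x axis) in CPM on a log scale (y axis, with values under 0.01 CPM drawn at 0.01). Points are the 2 libraries of a group and lines their mean. COL1A2 lies at 11.5 CPM or more in every KRAB-D9 library, at 4.34 to 7.0 CPM in parental libraries, and at 0.205 CPM or less in every VPR-D9 library.

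Described by role, the lists of neighbours gave mixed directions. All 11 genes of organelles, scaffolds and metabolism were tested. In D2000 cells 3 were called higher and 3 lower, against 21.9% and 24.2% of all genes (median 0.01, against 0.06 over all genes). In D6 cells none was called, against 6.60% of all genes. With doxycycline in KRAB-D9 cells 2 were higher and 1 lower, against 12.0% and 12.7% of all genes (median 0.12, against 0.02). With doxycycline and IFN against IFN 1 was higher and 2 lower, against 10.4% and 11.9% of all genes. Of 7 listed membrane proteins and metalloreductases, 6 were tested, and HEPACAM2 was the only one called with IFN in parental and in KRAB-D9 cells. Of all genes, 3.03% and 3.98% were called higher there (list medians -0.04 and 0.13, against 0.00 over all genes in both). The ubiquitin, chromatin and RNA list had 4 of 5 genes tested, of which ANKIB1 and GATAD1 rose and FAM133B fell with doxycycline alone (median 0.07), where 12.0% of all genes were called higher and 12.7% lower. Of the cell cycle kinases CDK6 and CDK14, CDK6 alone was called in any comparison. The 5 signalling and secreted genes had 2 lower in D2000 cells (FZD1 and COL1A2, against 24.2% of all genes). They had 1 lower with doxycycline in KRAB-D9 cells with or without IFN (COL1A2, against 11.9% and 12.7% of all genes). With IFN and no doxycycline none was called in parental or KRAB-D9 cells, against 4.34% and 6.40% of all genes. Between untreated lines, 3 of these 5 were lower in VPR-D9 cells (COL1A2, GNG11 and GNGT1) and 2 higher in KRAB-D9 cells (COL1A2 and GNG11), against parental cells, where 18.2% of all genes were called lower in VPR-D9 and 14.2% higher in KRAB-D9. With so few genes in a list, these counts are descriptions. Of 5 genes of the imprinted and retroelement-derived list, 2 were tested, PEG10, an imprinted gene derived from a retrotransposon, and ERVW-1, which encodes syncytin-1, and neither was called in any comparison. PEG10 was at 0.640 and 0.590 CPM in D2000 cells, against 0.402 and 0.568 CPM in untreated VPR-D9 cells. Of the 3 paraoxonases, PON2 alone passed the filter. In the 7 comparisons of a treatment with its control, 25 of the 44 genes were never called, or 56.8%, against 44.8% of all 22143 genes. Over all 12 comparisons 15 of 44 were never called, or 34.1%, against 33.3% of all genes. These shares are not matched for level. At 1 CPM or more over the groups compared, 54.5% of neighbours were called for D2000, against 66.8% of all genes, and 9.52% against 10.1% for D6. It was 37.5% against 38.7% for doxycycline and 37.5% against 35.1% for doxycycline and IFN over IFN. With IFN it was 4.35% against 6.85% in parental cells, 12.5% against 10.1% in KRAB-D9, and 4.17% against 7.63% with doxycycline present.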

How the data were processed

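The table holds raw counts of reads per gene, as deposited by the authors. The submitters' processing notes list featureCounts 2.0.2, STAR 2.7.8a, cutadapt 2.10, FastQC 0.11.9 and GRCh38.p13 in no stated order. The sources used here do not state the annotation release, the strand setting or the treatment of multiply mapped reads, so the 31 of 44 tested genes that overlap another listed gene, and any with near-identical copies, are uncertain.

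One quasi-likelihood model of edgeR 4.0.16 (R 4.3.3; robust, TMM, filterByExpr by group) held 9 group means, used all 18 libraries and left 9 residual degrees of freedom. Standard errors are the size of the log2 fold change over the square root of F, approximate at low counts, and 95% intervals use the t distribution of the fit. The script was tested on simulated data. Nothing in the labels says that libraries of a group are separate cultures, so the p-values cover the spread between these samples, which may be technical. Dispersion was shared, so errors in comparisons with KRAB-D9 given IFN may be too small.

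Distances run between starts of transcription, with strands from GENCODE release 29 (74 of 77 genes; the nearer end for the other 3). The genes and lists were chosen with earlier results of these data known. Named genes are those tested within 500 kb of SAMD9, the called neighbours with the smallest adjusted p (up to 8 in each direction, or 4 in comparisons other than the 7 of a treatment with its control), and examples of role lists. Some of them are not reported here. Alternatives were the Wald test of DESeq2 1.42.0, library totals, other filters on low counts, a replicate block, the compared groups only and each library left out. Another, named DESeq2 size factors here, was the edgeR fit with edgeR's own relative log expression (RLE) scaling in place of TMM. A level of at least 1 CPM over the groups compared was added after seeing the data.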

Additional observations from a re-analysis of the deposited data

How the results depend on the processing

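None of the 134 named values changed sign where it was called with or without the alternative. Alternatives that kept all libraries gave an adjusted p for 885 of 938 named values: 853 kept the side of the threshold, 21 lost the call and 11 gained it. DESeq2 gave no adjusted p for 27, CYP51A1-AS1 with IFN in KRAB-D9 cells among them, and 26 were filtered out, 14 with the compared groups only and 12 with the mean of at least 10 counts. These are counted neither as kept nor as lost. Of 592 that left out 1 library, 516 kept it, 69 lost it and 7 gained it. Fits to the compared groups only gave 0 neighbours called with IFN in parental cells (1 in the full fit) and 1 in KRAB-D9 cells (4). With IFN in doxycycline-treated KRAB-D9 cells (1 called), 2 were called with DESeq2 size factors, 2 with library totals, 4 with the compared groups only and 3 with the DESeq2 Wald test. For the IFN effect in KRAB-D9 minus that in parental cells (0 called), 1 was called with no low-count filter and 1 with DESeq2. Which step caused these moves was not tested. With 1 library left out, the counts ranged from 10 to 13 for D2000 (14), 1 to 2 for D6 (2), 9 to 11 for D6 minus D2000 (11), 6 to 11 for doxycycline (9), 6 to 11 for doxycycline and IFN minus IFN (10), 0 to 1 for IFN in parental cells (1), 3 to 8 for IFN in KRAB-D9 cells (4), 0 to 1 for IFN with doxycycline (1), 10 to 12 for untreated VPR-D9 minus parental (15), 8 to 12 for untreated KRAB-D9 minus parental (14), 0 to 2 for the doxycycline effect with minus without IFN (0), and 0 to 4 for the IFN effect in KRAB-D9 minus in parental (0). In such fits the lone library is assumed to vary like the other groups.

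Replicate numbers gave no sign of pairing: deviations of same-numbered libraries correlated between -0.0689 and 0.0889. With the replicate number as a block, the counts were 14 for D2000, 2 for D6, 10 for doxycycline, 9 for doxycycline and IFN minus IFN, 1 for IFN in parental cells, 5 for IFN in KRAB-D9 cells and 1 for IFN with doxycycline. STEAP1 with doxycycline and IFN minus IFN (adjusted p = 0.0507) lost its call and VPS50 with IFN in KRAB-D9 cells (adjusted p = 0.0371, edgeR) gained one under the block. Neighbours under 1 CPM rest on few counts, and changes in them are limited by depth.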
